A study of Mus musculus with 9 samples.

Results

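Cytosolic ribosomal protein genes were examined in splenic B cells of transgenic mouse models of chronic lymphocytic leukemia (CLL). Members were taken by name, as every gene whose symbol follows the Rpl or Rps pattern, with ribosomal S6 kinases and annotated pseudogenes left out. This gave 85 of 22174 genes. They comprised 43 proteins of the large subunit, 31 of the small subunit, 3 of the ribosomal stalk, 7 paralogs of these proteins and 1 gene matched by its name alone. That gene is Rps19bp1, which encodes a binding partner of RPS19 and SIRT1 and is no ribosomal protein.

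RNA-sequencing was performed on 9 mice of strain C57/BL6NTac, with 1 library per mouse and 3 mice per group. Eµ-MTCP1 mice (Z2551, Z2606 and Z2641) carried human MTCP1 behind a VH promoter and the IgH-Eµ enhancer, which direct the transgene to immature and mature B cells, and all came from founder line Z36. Eµ-TCL1 mice (B4376, B4437 and C1594) carried human TCL1, and wildtype mice (Z2754, Z2755 and Z2785) carried no transgene. The labels give neither age nor sex, and no group received a treatment according to them. B cells were enriched from spleen by negative selection, which leaves several B-cell subsets in the wildtype libraries.

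The eukaryotic ribosome joins a small subunit, which reads the mRNA, to a large subunit, which forms peptide bonds. Its proteins are made in fixed proportions, and their mRNAs are among the most abundant of any growing cell. Most of these mRNAs begin with a 5′ terminal oligopyrimidine (TOP) tract, a C followed by further C and T bases, through which mTOR and LARP1 control their translation together. Free ribosomal proteins such as RPL5 and RPL11 also bind MDM2 and thereby activate p53, and RPS15 is recurrently mutated in human CLL.

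Start sites of a few members are shown because the TOP tract is a sequence feature described for most mRNAs of this family. RefSeq (build GRCm38.p6) gave 77 promoters for 65 of the 85 genes. A run of C and T bases that starts with C and is at least 5 bases long, searched on the gene's own strand within 10 bases of the annotated start, was present in 41 of 77 promoters (53.2%), against 30.7% of all 32851 promoters. A run of at least 8 bases was present in 31.2% of the members' promoters and in 8.11% of all promoters. The windows below span 30 bases around the start, written 5′ to 3′ on the gene's strand, with the run in capitals where it reaches 5 bases.
Rps10 (chr17:27635230-27635259, minus strand): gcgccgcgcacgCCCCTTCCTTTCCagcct
Rps18 (chr17:33955651-33955680, minus strand): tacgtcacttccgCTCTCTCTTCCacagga
Rps27 (chr3:90213634-90213663, minus strand): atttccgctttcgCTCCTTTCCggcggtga
Rplp2 (chr7:141447636-141447665, plus strand): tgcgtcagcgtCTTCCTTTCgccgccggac
Rpl22l1 (chr3:28805493-28805522, plus strand): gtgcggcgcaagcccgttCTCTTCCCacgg
Rps19bp1 (chr15:80264292-80264321, minus strand): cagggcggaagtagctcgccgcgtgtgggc
Rps10, Rps18 and Rps27 of the small subunit and Rplp2 of the stalk carried long runs over the start. The paralog Rpl22l1 carried one of 8 bases just past it. Rps19bp1 had no run of 5 bases in this window. Neither had many ribosomal proteins, among them Rpl5, Rpl11, Rplp0, Rpsa and Rps15, so this does not set it apart from them. A match describes letters at an annotated start and was not tested as a regulatory site.

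Ribosomal protein genes took a large share of the assigned reads in every library. Among Eµ-MTCP1 mice the share was 15.6% in Z2551, 10.4% in Z2606 and 18.7% in Z2641. Among Eµ-TCL1 mice it was 11.9% in B4376, 15.4% in B4437 and 12.01% in C1594. Among wildtype mice it was 11.7% in Z2754, 9.17% in Z2755 and 15.2% in Z2785. The 3 groups therefore overlapped, with means of 14.9% ± 4.21 (SD, n = 3) in Eµ-MTCP1, 13.1% ± 2.005 in the Eµ-TCL1 group and 12.02% ± 3.02 among wildtype mice. Differences between the group means were smaller than the spread within the Eµ-MTCP1 group.

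The members moved as a block from mouse to mouse. For each gene the log2 value of its library-scaled read count (CPM, with 0.5 added) was compared with its own mean over the 9 libraries. The median member stood at 0.32, -0.24 and 0.65 in the Eµ-MTCP1 mice Z2551, Z2606 and Z2641. It stood at -0.13, 0.19 and -0.07 in the Eµ-TCL1 mice B4376, B4437 and C1594. It stood at -0.22, -0.73 and 0.19 in the wildtype mice Z2754, Z2755 and Z2785. Eµ-MTCP1 mouse Z2641 was the highest of the 9 libraries for 71 of 81 tested members, and wildtype mouse Z2755 was the lowest for 75. The median over all tested genes lay between -0.02 and 0.02 in the same libraries, near 0 as the scaling sets it, so these are levels relative to the other genes of a library. A shift common to all members of a library made up 75.9% of the members' summed squared deviations.

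**Figure D1:**
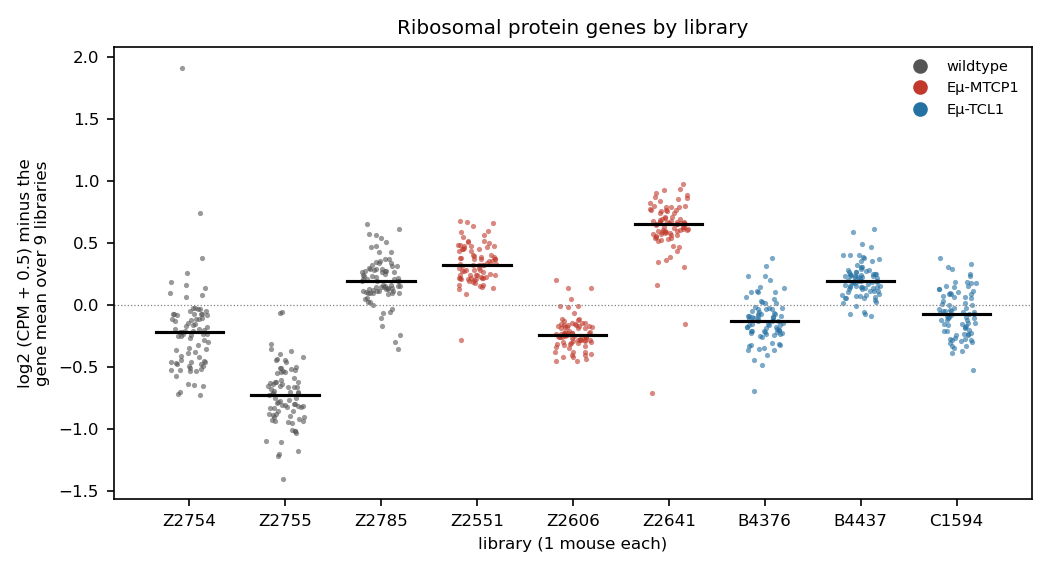
Log2 (CPM + 0.5) of each of 81 tested members minus the gene's mean over 9 libraries (vertical axis), by library (horizontal axis, coloured by group), with the median as a black bar. The members of Z2641 lie around 0.65 and those of Z2755 around -0.73, while the point near the top in Z2754 is Rpl22l1.

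Several values moved with these libraries. Z2755 was sequenced on a lane of its own, and the other 8 libraries shared a lane, so lane and mouse cannot be told apart. Z2755 had the lowest share of ribosomal RNA reads on the standard reference, 0.804%, and Z2641 the highest, 4.30%. Summed markers of proliferation (Mki67, Top2a, Ccnb1, Cdk1) were highest in Z2641, at 909 CPM, and stood at 375 CPM in Z2551 and 179 CPM in Z2606. They ranged from 282 to 394 CPM in Eµ-TCL1 and from 141 to 211 CPM in wildtype mice, so every transgenic library but Z2606 lay above every wildtype one. Summed red cell markers were also highest in Z2641, at 315 CPM, and ranged from 22.4 to 172 CPM elsewhere. Summed myeloid markers were highest in Z2755, at 4005 CPM, and ranged from 159 to 2062 CPM elsewhere. The mitochondrial share of reads was 8.02% in Z2641 and 10.8% in Z2754, and 2.91% to 4.57% in the other 7 libraries. Z2606, the lowest Eµ-MTCP1 library for 79 of 81 members, had the highest immunoglobulin share, 15.6% against 3.39% to 9.39% elsewhere, and the highest summed plasma cell markers, at 2889 CPM. The part of these in the members' levels was not tested. In bulk RNA, fewer cells of a type and less RNA per cell cannot be told apart.

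The members most like one another over the 9 libraries were ordinary subunit proteins. The median Pearson correlation between pairs of members was 0.87, over 9 libraries that share depth and scaling, and is given as a description. Rpl29 had the highest median correlation with the other 80 members, 0.94. Rpl22l1 had the lowest, -0.26, followed by Rpl7l1 at 0.08 and Rpl22 at 0.60. The median coefficient of variation within a group was 33.6% among members against 22.6% over all tested genes in wildtype mice and 30.8% against 26.4% in Eµ-MTCP1 mice. In Eµ-TCL1 mice it was lower among members, at 14.8% against 21.9%.

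Levels between genes were compared per length, as TPM, which divides reads by transcript length before scaling to the library. On coding sequences Rps27, a zinc-binding protein of the small subunit, was the highest in wildtype mice, at 16607 ± 3206 TPM (SD, n = 3). On full transcripts it had a mean of 6288 TPM and was not the highest, and there the gene Rps27rt, which holds all of its 31-base stretches, took 110207 reads. Among the next highest, Rpl37a was at 9364 ± 2120 TPM, Rps19 at 8174 ± 1408 TPM and Rpl39 at 6072 ± 1453 TPM. Rpl37a and Rps19 lay within each other's spread, whereas the means of Rps19 and Rpl39 were farther apart than either SD. On full transcripts their means were 5753 TPM for Rpl37a, 5935 TPM for Rps19 and 1159 TPM for Rpl39, so the order of levels depends on the reference. At the other end stood Rps19bp1 at 37.7 ± 0.85 TPM and Rpl7l1, a paralog of Rpl7 that acts in ribosome assembly, at 60.2 ± 12.4 TPM. Rps27l, a p53-induced paralog of Rps27, was measured at 179 ± 8.47 TPM, Rpl22l1 at 314 ± 214 TPM and Rpl22 at 532 ± 295 TPM. The last pair overlapped in their spread, whereas every other paralog tested lay below its parent gene.

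**Figure D2:**
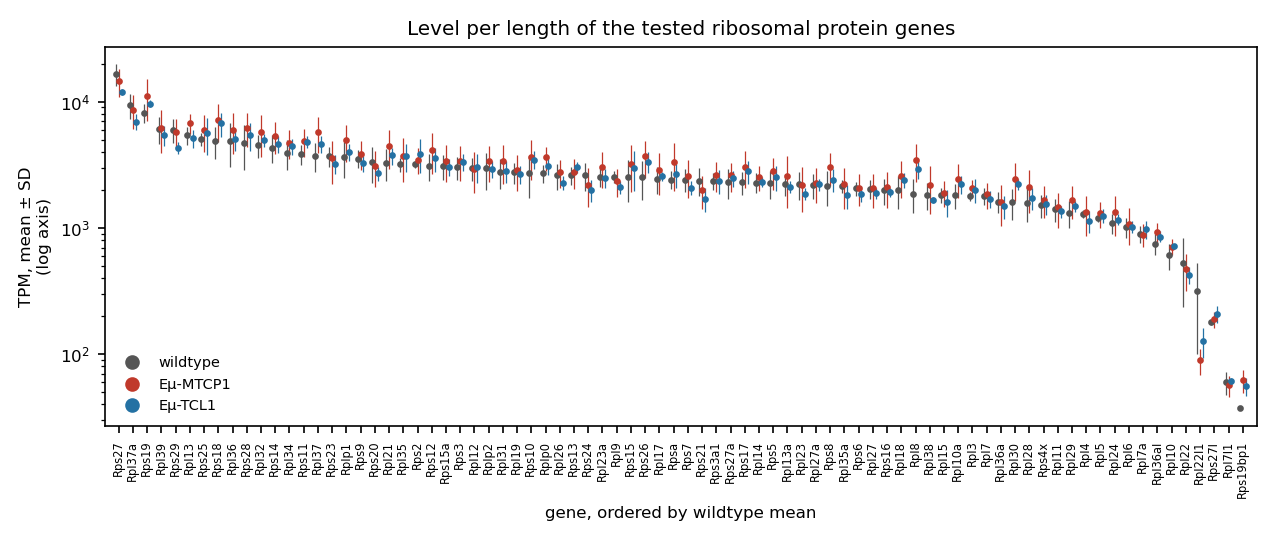
Mean TPM ± SD over 3 mice per group (vertical axis, log scale) for 80 of the 81 tested members, ordered by the wildtype mean (horizontal axis). Values are those on coding sequences, where Rps27 leads at 16607 TPM in wildtype mice, and the paralogs Rpl22l1, Rps27l and Rpl7l1 close the order together with Rps19bp1.

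Whether leukemic B cells of Eµ-MTCP1 mice differ from wildtype B cells in these genes was examined on 11165 genes with edgeR (quasi-likelihood fit), with Benjamini-Hochberg adjustment over all of them. Rps19bp1 was higher in Eµ-MTCP1 mice, and no gene of an actual ribosomal protein passed the test. Thus 1 of 81 tested members was called at an adjusted p under 0.05, whereas 9.48% of all tested genes were called, 613 higher and 446 lower. Unadjusted p-values under 0.05 were found for 13 members, 12 of them higher and 1 lower, or 16.05% against 25.0% of all tested genes. DESeq2 on the same counts called 6 members, with Rpl8, Rpl30, Rpl37, Rplp0 and Rps19bp1 higher and Rpl22l1 lower. The share of all tested genes that DESeq2 called was not tallied, so this count has no background beside it.

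The direction was shared by nearly all members although Rps19bp1 alone passed the test. Fitted log2 fold changes were above 0 for 80 of 81 members, compared with 48.6% of all tested genes. Their median was 0.49, whereas that of all tested genes was -0.02. By role the median was 0.48 for 42 large subunit genes, 0.49 for 31 small subunit genes, 0.72 for 3 stalk genes and 0.31 for 4 paralogs. The standard error of a single member had a median of 0.31. Since the members rise and fall together in a library, they do not count as separate evidence. The median moved with single libraries in both directions. It was 0.23 without Eµ-MTCP1 mouse Z2641 and 0.28 without wildtype mouse Z2755, which leaves the libraries of a single lane, and 0 members were called in either fit. It was 0.62 without Eµ-MTCP1 mouse Z2606, with 3 members called, and 0.72 without wildtype mouse Z2785, with 5 called. Without both Z2641 and Z2755, the extreme libraries, it was 0.04 with 0 called. The share of all tested genes called was not tallied in these reduced fits, so their counts of members have no background.

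**Figure D3:**
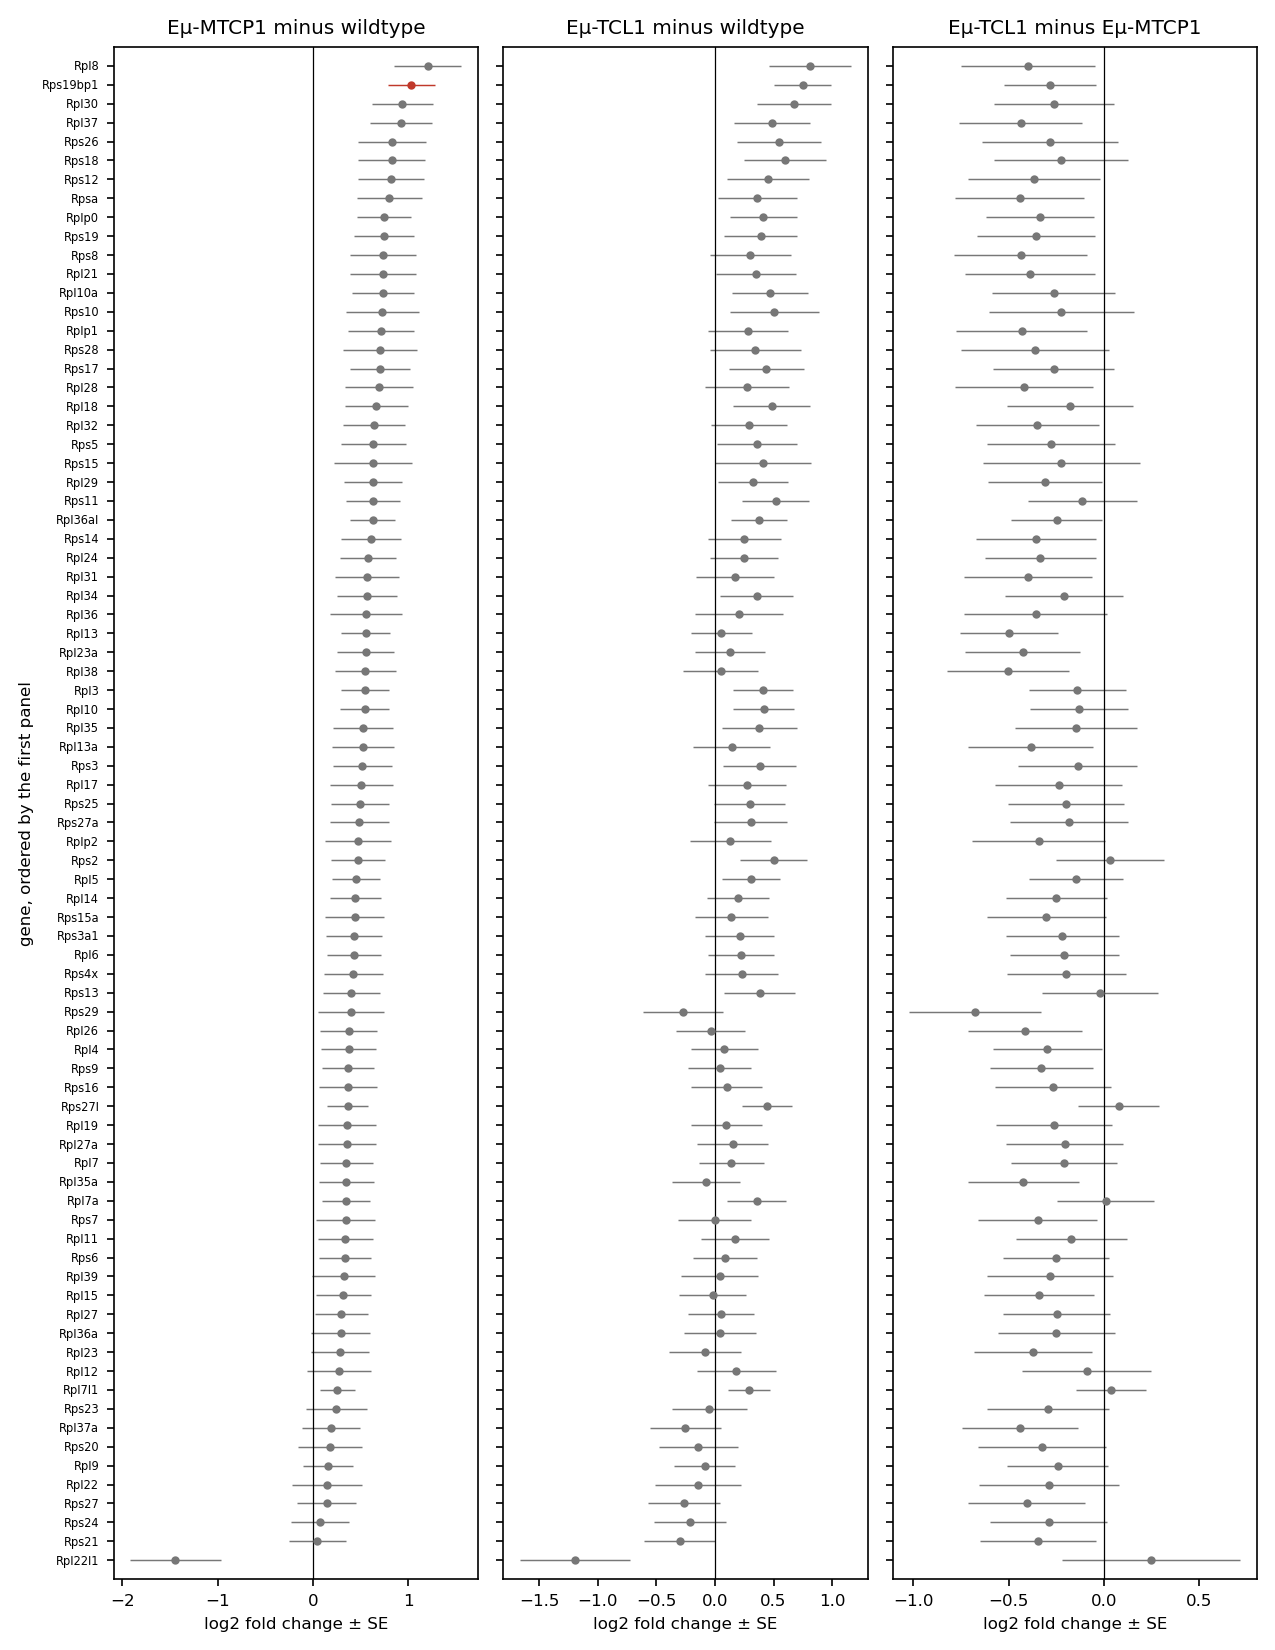
Fitted log2 fold change ± SE (horizontal axis) of 80 of the 81 tested members (vertical axis, in the order of the first panel) in the 3 comparisons, each panel with its own scale; red marks an adjusted p under 0.05. Only Rps19bp1 in the first panel is red, and Rpl22l1 is the only gene left of 0 there.

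Values of single genes are given in the order Z2551, Z2606 and Z2641 for Eµ-MTCP1, B4376, B4437 and C1594 for Eµ-TCL1, and Z2754, Z2755 and Z2785 for wildtype. Rps19bp1 was measured at 31.3, 25.1 and 37.0 CPM in the Eµ-MTCP1 libraries, at 20.4, 27.5 and 28.8 CPM in the Eµ-TCL1 libraries and at 14.5, 13.6 and 17.7 CPM among the wildtype ones. Every transgenic library was above every wildtype library. The log2 fold change was 1.03 ± 0.25 (SE; adjusted p = 0.026, edgeR) in Eµ-MTCP1 and 0.75 ± 0.24 (adjusted p = 0.086) in Eµ-TCL1 mice. None of its 31-base stretches is shared with another annotated gene, so its reads are not split with a copy. The call depended on single libraries, while the fold change moved less. The log2 fold change was 1.03 without Z2551 (adjusted p = 0.073), 0.86 without Z2641 (adjusted p = 0.075), 0.99 without Z2754 (adjusted p = 0.092) and 0.93 without Z2755 (adjusted p = 0.11). Without both Z2641 and Z2755 it was 0.77 (adjusted p = 0.20). With libraries scaled to the members themselves, a fit added after the data were seen, it was 0.49 (adjusted p = 0.40).

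Rpl8, a protein near the peptidyl transferase centre, had the highest fitted change of the ribosomal proteins. It was measured at 3992, 2740 and 5211 CPM in the Eµ-MTCP1 libraries, at 2593, 3465 and 3011 CPM in the Eµ-TCL1 libraries and at 1631, 1002 and 2544 CPM among the wildtype ones. All 6 transgenic libraries exceeded all wildtype ones, the closest pair being 2593 CPM in B4376 and 2544 CPM in Z2785. The log2 fold change against wildtype was 1.21 ± 0.35 (adjusted p = 0.059, edgeR) in Eµ-MTCP1 and 0.81 ± 0.35 (adjusted p = 0.18) in Eµ-TCL1 mice. With libraries scaled to the members themselves the first of these fell to 0.73 ± 0.21 (adjusted p = 0.061, edgeR). Without both Z2641 and Z2755 it was 0.65 (adjusted p = 0.32). It passed in edgeR without Z2606 (1.38, adjusted p = 0.042), without Z2785 (1.59, adjusted p = 0.030), in the gene count table (1.19, adjusted p = 0.044) and after the coverage filter (1.19, adjusted p = 0.042). It also passed in DESeq2 on the same counts (1.20, adjusted p = 0.0054) and with length offsets (1.17, adjusted p = 0.011). The Eµ-TCL1 value was 0.51 (adjusted p = 0.44) without Z2755 and 1.20 (adjusted p = 0.072) without Z2785. Only 11.1% of its 31-base stretches occur in another gene.

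Rpl30, a large subunit protein that regulates its own splicing, gave the same order of groups. It was measured at 986, 706 and 1425 CPM in the Eµ-MTCP1 libraries, at 843, 955 and 802 CPM in the Eµ-TCL1 libraries and at 650, 332 and 645 CPM among the wildtype ones. All 6 transgenic libraries exceeded all wildtype ones, whereas both transgenic groups overlapped. The log2 fold change was 0.94 ± 0.32 (adjusted p = 0.098, edgeR) in Eµ-MTCP1 mice. Leaving out 1 library moved it from 0.61 (without Z2641) to 1.11 (without Z2606, adjusted p = 0.062), and it was 0.35 (adjusted p = 0.50) without both Z2641 and Z2755. With all libraries it passed in DESeq2 on the same counts (0.93, adjusted p = 0.029) and with length offsets (0.92, adjusted p = 0.038). Besides Rpl8, Rpl30 and Rps19bp1, Rpl13 and Rpl36al were higher in every Eµ-MTCP1 than in every wildtype mouse, which makes 5 of 81 members, against 14.7% of all tested genes. Rps21 and Rps24 of the small subunit had the smallest values above 0, with log2 fold changes of 0.05 ± 0.30 and 0.08 ± 0.31.

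Rpl22l1, a paralog that stands in for RPL22 and is restrained by it, went the other way. It was measured at 30.98, 28.9 and 22.9 CPM in the Eµ-MTCP1 libraries, at 26.8, 45.4 and 26.0 CPM in the Eµ-TCL1 libraries and at 144, 36.2 and 45.6 CPM among the wildtype ones. It was the single member lower in every Eµ-MTCP1 than in every wildtype mouse, against 15.3% of all tested genes, and wildtype mouse Z2754 stood far above the rest. The log2 fold change was -1.44 ± 0.47 (adjusted p = 0.088, edgeR) in Eµ-MTCP1 and -1.20 ± 0.47 (adjusted p = 0.14) in Eµ-TCL1 mice. Without Z2754 these were -0.58 (adjusted p = 0.32) and -0.33 (adjusted p = 0.59). With all libraries the Eµ-MTCP1 value passed in DESeq2 on the same counts (-1.46, adjusted p = 0.019) and with length offsets (-1.49, adjusted p = 0.011). In edgeR it passed with libraries scaled to the members (-1.89, adjusted p = 0.045). Rpl22 itself, the parent protein required for T-cell development, was measured at 182, 138 and 257 CPM in the Eµ-MTCP1 libraries, at 134, 181 and 158 CPM in the Eµ-TCL1 libraries and at 277, 89.998 and 154 CPM among the wildtype ones. Its groups overlapped, and Z2754 was again the highest library.

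**Figure D4:**
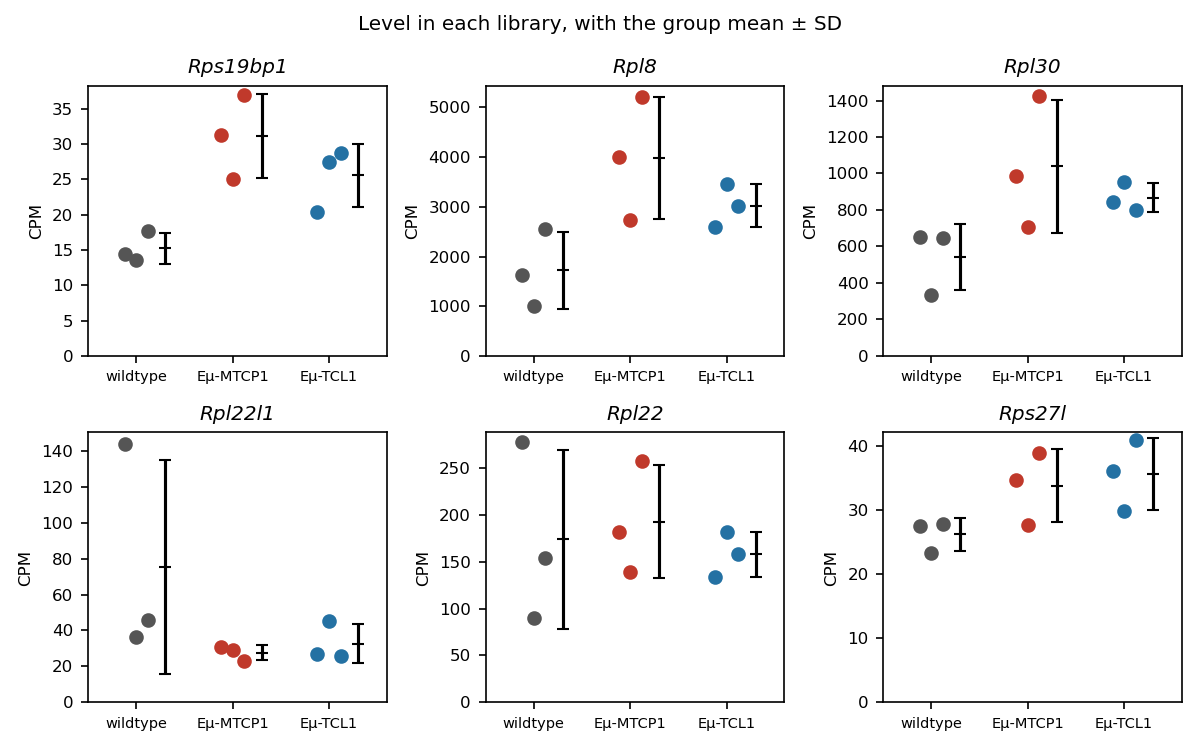
CPM in each library (vertical axes from 0) by group for 6 genes, with the group mean ± SD beside the points. Every transgenic library lies above the wildtype ones for Rps19bp1, Rpl8 and Rpl30, and the wildtype mean of Rpl22l1 rests on 144 CPM in Z2754.

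The remaining paralogs did not pass the test. Rps27l was measured at 34.7, 27.7 and 38.9 CPM in the Eµ-MTCP1 libraries, at 36.1, 29.8 and 41.0 CPM in the Eµ-TCL1 libraries and at 27.6, 23.3 and 27.8 CPM among the wildtype ones. Its Eµ-TCL1 and wildtype groups did not overlap, and the log2 fold change of 0.44 ± 0.21 did not pass (adjusted p = 0.23, edgeR). Rpl7l1 had a log2 fold change of 0.29 ± 0.18 in Eµ-TCL1 mice and Rpl36al, a retrocopy-derived paralog of Rpl36a, one of 0.63 ± 0.24 in Eµ-MTCP1 mice (adjusted p = 0.14, edgeR). Without Z2785 that of Rpl36al was 0.90 and passed (adjusted p = 0.044). The parents Rpl7, Rpl36a, Rpl3, Rpl10, Rpl39, Rps4x and Rps27 had log2 fold changes from 0.14 ± 0.31 (Rps27) to 0.55 ± 0.25 (Rpl3) in Eµ-MTCP1 mice. Rpl3l, the striated muscle paralog of Rpl3, had 16 reads in all, 14 of them in B4437. Rpl39l, known from testis, had 1 read and Rpl10l, also of testis, had 0 reads in 9 libraries, where 3 reads correspond to 0.373 to 0.465 CPM.

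The stalk recruits elongation factors to the ribosome through Rplp0, Rplp1 and Rplp2. Rplp0 was measured at 6583, 4430 and 6522 CPM in the Eµ-MTCP1 libraries, at 3976, 5290 and 4622 CPM in the Eµ-TCL1 libraries and at 3167, 2510 and 4757 CPM among the wildtype ones. Its groups overlapped through Z2606 and Z2785, and the log2 fold change was 0.75 ± 0.29 (adjusted p = 0.14, edgeR). Rplp1 and Rplp2 had log2 fold changes of 0.72 ± 0.34 and 0.47 ± 0.35, and Rpsa, the laminin receptor protein of the small subunit, one of 0.80 ± 0.34. Rps27a, which is made as a fusion with ubiquitin, had one of 0.49 ± 0.31. None of these passed the test.

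Members tied to the p53 checkpoint or to disease did not pass either. Rps15 was measured at 1673, 943 and 2191 CPM in the Eµ-MTCP1 libraries, at 1085, 1896 and 1138 CPM in the Eµ-TCL1 libraries and at 892, 605 and 1600 CPM among the wildtype ones. These groups overlapped widely, with a log2 fold change of 0.63 ± 0.41 (adjusted p = 0.37, edgeR) in Eµ-MTCP1 mice. Rps19, mutated in Diamond-Blackfan anemia, had a log2 fold change of 0.75 ± 0.31 (adjusted p = 0.17). Rps14, lost in the 5q- syndrome, had one of 0.61 ± 0.32. Rpl5, Rpl11, Rpl23, Rpl26 and Rps7, which bind MDM2, lay between 0.29 ± 0.31 (Rpl23) and 0.45 ± 0.25 (Rpl5).

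In Eµ-TCL1 mice the same genes were compared with the same wildtype mice, so this comparison shares its controls with the one above. The edgeR test called 0 of 81 members, against 9.2% of all tested genes (566 higher, 461 lower). Unadjusted p-values under 0.05 were found for 3 members (Rpl8 and Rps19bp1 higher, Rpl22l1 lower), against 25.1% of all tested genes. That of Rpl22l1 was 0.29 without wildtype mouse Z2754. DESeq2 called 0 members on the same counts and 1, Rps19bp1, with length offsets, and its share over all tested genes was not tallied. Fitted log2 fold changes were above 0 for 65 of 81 members, against 49.3% of all tested genes, with a median of 0.25. Summed proliferation markers, given above, were also higher in every Eµ-TCL1 than in every wildtype mouse, and their part was not tested. The median fold change of the members was 0.00 (0.00144) without wildtype mouse Z2755 and 0.47 without wildtype mouse Z2785. Higher in every Eµ-TCL1 than in every wildtype mouse were 7 of 81 members, namely Rpl5, Rpl7l1, Rpl8, Rpl30, Rps13, Rps19bp1 and Rps27l, against 16.6% of all tested genes. The lowest fitted changes besides Rpl22l1 were those of Rps21 and Rps29, at -0.30 ± 0.30 and -0.27 ± 0.34.

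Eµ-TCL1 and Eµ-MTCP1 mice were compared directly to ask whether the leukemias differ. Here edgeR called 0 of 81 members, against 0.0448% of all tested genes, and DESeq2 called 0 members. Unadjusted p-values under 0.05 in edgeR were found for 0 members, against 6.42% of all tested genes. The median log2 fold change was -0.28, and 5 of 81 members lay above 0, against 49.7% of all tested genes. No member was higher in every Eµ-TCL1 than in every Eµ-MTCP1 mouse, against 5.42% of all tested genes. Leaving out 1 library moved the median from -0.06 (without Z2641) to -0.49 (without Z2606). Rps29 had the lowest value, -0.67 ± 0.35, followed by Rpl38 at -0.50 ± 0.32 and Rpl13 at -0.50 ± 0.26. Rpl13 was measured at 4756, 4509 and 5976 CPM in the Eµ-MTCP1 libraries, at 3297, 4097 and 3388 CPM in the Eµ-TCL1 libraries and at 3383, 2500 and 4500 CPM among the wildtype ones. It was the single member lower in every Eµ-TCL1 than in every Eµ-MTCP1 mouse, against 5.62% of all tested genes, and its adjusted p was 0.81 (edgeR).

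Genes that work with the ribosome were read from lists. Among translation elongation and other TOP mRNAs, 3 of 26 tested genes (11.5%) were called higher in Eµ-MTCP1 and 2 (7.69%) in Eµ-TCL1 mice. In both comparisons 0 were called lower. Of all tested genes 9.48% and 9.2% were called, so these shares were near the background. Eif3l and Eif3d, subunits of the initiation factor eIF3, had log2 fold changes of 0.86 ± 0.19 (adjusted p = 0.019, edgeR) and 0.69 ± 0.19 (adjusted p = 0.044) in Eµ-MTCP1 mice. Eif4b, a cofactor of the helicase eIF4A, had one of 0.85 ± 0.18 (adjusted p = 0.017). The median of this list was 0.46 in Eµ-MTCP1 and 0.35 in Eµ-TCL1 mice. Like the members, its genes stood highest in Z2641, where their median log2 deviation was 0.39, and lowest in Z2755, where it was -0.60. Fau and Rack1, ribosomal proteins that the naming rule does not catch, had log2 fold changes of 0.37 ± 0.33 and 0.66 ± 0.29 in Eµ-MTCP1 mice.

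Of 55 genes of ribosome biogenesis and RNA polymerase I, 4 (7.27%) were called higher in Eµ-MTCP1 mice (Nop16, Nhp2, Polr1a and Noc2l). In Eµ-TCL1 mice 2 (3.64%) were called higher (Nop16 and Nhp2). These shares lay below the 9.48% and 9.2% of all tested genes. In both comparisons 0 were called lower. Fitted log2 fold changes were above 0 for 24 and 32 of the 55 genes, with medians of -0.06 and 0.07. Nop16, a nucleolar factor of large subunit assembly, rose from 23.6 ± 3.53 CPM in wildtype to 49.2 ± 6.58 CPM in Eµ-MTCP1 mice (adjusted p = 0.0082, edgeR). Of 15 regulators of TOP mRNA translation, Larp4 alone (6.67%) was called higher in Eµ-MTCP1 mice, with a log2 fold change of 0.80 ± 0.22 (adjusted p = 0.043, edgeR), and Larp1 stood at 0.09 ± 0.21. Myc, a driver of ribosomal gene transcription, had a log2 fold change of -0.67 ± 0.36 (adjusted p = 0.27). Of 78 mitochondrial ribosomal protein genes, the test called 3 higher and 1 lower (5.13% together, against 9.48% of all tested genes) in the Eµ-MTCP1 group, with a median of 0.21. Over 6044 other tested genes with an effective length under 1000 bases the median was 0.01.

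The level of single members differed between quantifications. The values above come from estimated counts on coding sequences only, and the same libraries were also quantified on full transcripts and counted per gene. Full transcripts include many processed pseudogenes of this family. Of 85 members, 56 shared over 90% and 32 shared 100% of their 31-base coding stretches with other genes. The ratio of reads on full transcripts to reads on coding sequences had a median of 1.23 over 81 members. It was 0.036 for Rpl5 and 0.19 for Rpl12, whereas the pseudogenes Gm15500 and Gm10275, which hold every stretch of these genes, took 160679 and 130917 reads. In the gene count table it was Rpl24 and Rpl13a that nearly vanished, with 0.012 and 0.029 of their reads on coding sequences.

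At the other end stood the shortest proteins. Rpl39 and Rps29 had 8.25 and 5.93 times as many reads on full transcripts as on coding sequences. Rpl41, the smallest ribosomal protein, had 0 to 3 reads per library on coding sequences and 18162 to 37652 on full transcripts, so it was not tested on coding sequences although it was measured on full transcripts. In all, reads of 10 of 81 tested members differed over 3-fold from those on coding sequences in at least 1 of the other tables. These were Rpl5, Rpl10, Rpl12, Rpl13a, Rpl23a, Rpl24, Rpl39, Rps27l, Rps28 and Rps29, and their levels, like that of Rpl41, are thus uncertain. The median log2 fold change of the members against wildtype in the Eµ-MTCP1 group was 0.45 on full transcripts and 0.46 in the gene count table.

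**Figure D5:**
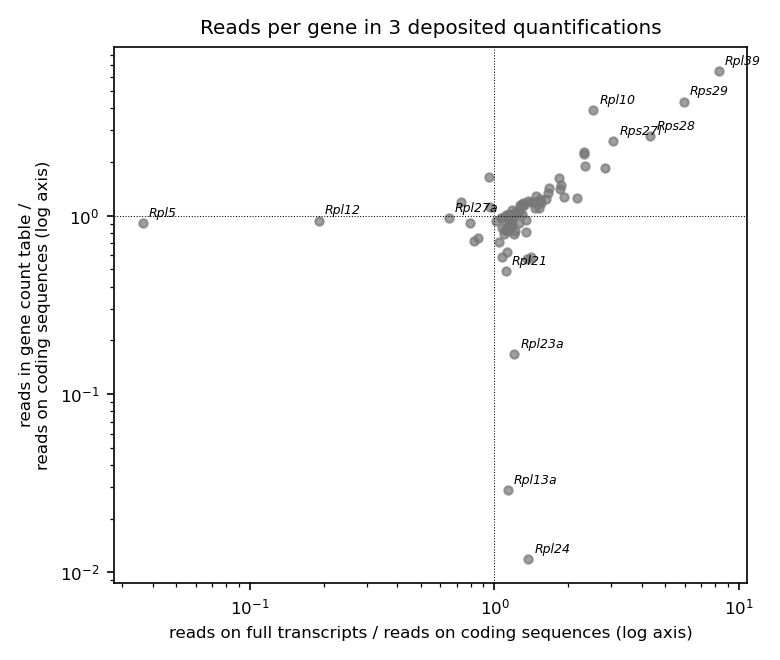
Reads of each tested member summed over 9 libraries, on full transcripts (horizontal axis) and in the gene count table (vertical axis), each divided by its reads on coding sequences, both on log axes. Of 81 members, 50 lie between 0.8 and 1.25 in the gene count table, and 37 on full transcripts. Rpl5 and Rpl12 lie far left at 0.036 and 0.19, and Rpl24 and Rpl13a lie at the bottom at 0.012 and 0.029.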

How the data were processed

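RNA-sequencing libraries of splenic B cells from 9 mice were used. Salmon (1.0.0 in the submitters' processing notes) was run by the authors to give expected counts and TPM of transcripts, once on a reference with human MTCP1 and TCL1 added, where 99.7% of transcripts had their M21 coding length to within 3 bases (called coding sequences here), and once on full mouse transcripts. Whole counts per gene were deposited as a table of the series and again after the authors' coverage filter (CLEAR). Normalized log2 values per gene were made by the authors with DESeq2, and columns of their own comparisons (log2 fold changes, p-values) were not used. The methods name SMARTer, Nextera XT and TruSeq kits together, and GENCODE release 23.

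Transcripts were summed to 22154 genes with GENCODE M21 (GRCm38), and sums were rounded. Totals ranged from 6447539 to 8033309 reads per library. The authors' normalized values of human TCL1A were 14.9 to 15.6 in Eµ-TCL1 mice and at most 6.96 elsewhere, and those of MTCP1 were 11.1 to 12.3 in Eµ-MTCP1 mice and at most 6.19 elsewhere. Summed B-cell markers ranged from 7724 to 11404 CPM and T-cell markers from 5.20 to 82.5 CPM.

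After filterByExpr and TMM scaling (0.911 to 1.18), a quasi-likelihood model (edgeR 4.0.16 under R 4.3.3) was fitted to the 9 libraries together, with two-sided tests and Benjamini-Hochberg adjustment over 11165 genes. The SE is the log2 fold change divided by the square root of F. The code was tested on simulated data. DESeq2 1.42.0 and limma 3.58.1 were alternatives among 23 listed at the start and 2 added later. Genes were named by role, paralogy, disease link, extreme change, extreme level or extreme ratio between tables. Rps13, Rpl37, Rpl29, Rpl24, Rpl13a, Rpl23a and Rps28 were added after their values were seen, and Rps10 and Rps18 were added for their start sites. For 1 member, counted in all totals, single values are not reported here. Members, lists and rules were chosen with earlier results of these data known. P-values of the main fit set a group difference against the spread between mice within groups. That spread was estimated over the 9 libraries together, with information shared across genes. RefSeq promoters were read on GRCm38.p6.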

Additional observations from a re-analysis of the deposited data

How the results depend on the processing

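The median member log2 fold change kept its sign under all 23 alternatives listed for it in the 3 comparisons. Leaving out 1 library each moved it from 0.23 to 0.72 in Eµ-MTCP1 against wildtype, from 0.00144 to 0.47 in Eµ-TCL1 against wildtype and from -0.49 to -0.06 in Eµ-TCL1 against Eµ-MTCP1 mice. Of the 2 alternatives added after the data were seen, the first comparison gave 0.041 without Z2641 and Z2755, with 0 members called. With libraries scaled to the members it gave -0.028, which follows from that scaling, and 1 member (Rpl22l1, lower) was called. With library size as the sole scaling factor the median of all genes was -0.26, -0.15 and 0.09 in the 3 comparisons and that of the members 0.27, 0.13 and -0.19. In Eµ-MTCP1 against wildtype, 6 members were called by DESeq2, 5 by DESeq2 with length offsets, 2 in the gene count table, 2 after the coverage filter and 0 with library size scaling. Leaving out 1 library gave 0 to 5 calls, and 0 to 0 in the other comparisons. In Eµ-TCL1 against wildtype 1 member, Rps19bp1, was called by DESeq2 with length offsets, on the standard reference, in the gene count table and after the coverage filter. The cause of these changes was not tested. The share of all tested genes called was tallied for the main fit alone, so these counts of members have no background. Rps19bp1 passed in Eµ-MTCP1 mice under 18 of 25 alternatives, with adjusted p from 0.0022 to 0.40. The share of reads on members was lower in the other tables, at 10.2%, 9.28% and 8.34% (Eµ-MTCP1, Eµ-TCL1, wildtype) on the standard reference. It was 10.4%, 9.27% and 8.32% in the gene count table. Adding pseudogenes with -ps in their names to the standard reference gave 10.5%, 9.60% and 8.61%. Pseudogenes with other names, such as Gm15500 and Gm10275, were not added. The share was higher without immunoglobulin and mitochondrial reads, at 17.4%, 14.6% and 13.7%. Of 2775 values of named genes under alternatives, 2751 stayed on their side of the threshold with no called value changing sign, 7 lost and 17 gained a call, and 181 uncalled values changed sign. No paired analysis was possible because the labels carry no replicate numbers. With 3 mice per group a median SE of 0.31 limits which changes could pass.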
